A study of Mus musculus with 17 samples.

Results

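The genes examined here carry adrenergic and cyclic AMP (cAMP) signals in the heart: the receptors Adrb1, Adra1a and Adra1b, the adenylyl cyclases Adcy5 and Adcy6, the phosphodiesterases Pde3a, Pde4b and Pde4d, and Prkar1a, a regulatory subunit of protein kinase A (PKA). They were chosen by name, with earlier results of these data known. All 9 had a row of their own among the 31647 features of the count table. Transcript levels were measured by massive analysis of cDNA ends (MACE), which counts 3′ ends of polyadenylated mRNA with molecular identifiers, so that a count stands for 1 tagged molecule whatever the length of the transcript. The left ventricle (LV) of 8 sham-operated mice was compared with the infarct zone (IZ) of 9 mice 5 days after the left anterior descending artery had been tied off for good, which causes a myocardial infarction. All mice were male C57BL/6J wild type aged 8 to 11 weeks, and no genetic change or drug treatment separated the groups. Sham mice had the same operation without ligation, and their tissue was LV, while the IZ was dissected out of the LV. Tissue region and infarction therefore cannot be told apart. Each library came from 1 mouse.

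Noradrenaline and adrenaline raise the rate and force of the heartbeat mainly through the beta-1 receptor, which couples to the stimulatory G protein and to adenylyl cyclase. The cAMP made there releases the catalytic subunits of PKA, which phosphorylate calcium channels, phospholamban and sarcomere proteins, and phosphodiesterases end the signal by breaking cAMP down, each in its own part of the cell. Alpha-1 receptors use another route, through the G protein Gq and phospholipase C, and are linked to cardiomyocyte growth and survival.

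The libraries of the sham group held between 1820809 and 4257919 counts and those of the IZ between 1237675 and 4738307. Levels are given as CPM, counts divided by the product of the library's total and its TMM factor (from a trimmed mean of log ratios). These factors ran from 0.616 to 0.729 in sham and from 1.05 to 1.53 in the IZ. The CPM of all genes therefore do not sum to the same total in each library. That total was higher in every sham library than in any IZ library. Heart muscle was present in sham LV, where 8 cardiomyocyte marker genes summed to 68936 to 89066 CPM. In the IZ the same genes summed to 2993 to 7617 CPM in 8 libraries and to 32656 CPM in IZ replicate 1, which stood apart. That library also had 19.5% mitochondrially encoded counts, against 4.22 to 6.78% in the other IZ libraries and 22.9 to 32.4% in sham. Values with and without it are given for each tested member. Of markers of other cells, 7 of 8 for fibroblasts and 7 of 7 for macrophages and monocytes were higher in the IZ, while endothelial cells had 1 of 6 lower and 5 not called and mural cells 2 higher, 2 lower and 2 not called. Summed fibroblast markers ran from 1527 to 2953 CPM in sham and from 12565 to 20499 in the IZ, and summed macrophage and monocyte markers from 358 to 521 and from 1874 to 5083 CPM. In bulk tissue, fewer cells of a type and less RNA per cell cannot be told apart, and the part of cell composition in the values below was not tested.

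Every member that could be tested was lower in the IZ. Of the 9 members, 8 passed the filter on low counts and all 8 were called lower at an adjusted p under 0.05 (edgeR quasi-likelihood test, Benjamini-Hochberg adjusted over 12301 genes). Of all tested genes 69.5% were called, 33.1% lower and 36.3% higher. In 5 of the 8 tested members every IZ library lay below every sham library, which held for 16.5% of all tested genes, while 16.6% had every IZ library above every sham library. The median log2 fold change of the 8 was -1.69, and that of all tested genes 0.05. The 8 calls stood when IZ replicate 1 was left out, with Adcy5 3.77-fold, Adcy6 3.84-fold, Pde3a 3.26-fold and Pde4d 4.70-fold lower. Each library left out in turn gave 7 or 8 members called lower, and only Pde4b lost its call. Scaling by total counts alone moved the median of all genes to 1.13 and the share of calls that were higher from 52.3% to 85.7%, and under it 6 members were called lower, whereas Pde4b and Prkar1a were called higher. Relative to that shifted median these 2 stood at -0.44 and -0.78, against -0.42 and -0.73 in the TMM scaling. The falls of the other 6 were smaller under total counts alone. Adcy5 stood at -0.56 and Pde3a at -0.54, against -1.60 for each in the TMM scaling.

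**Figure D1:**
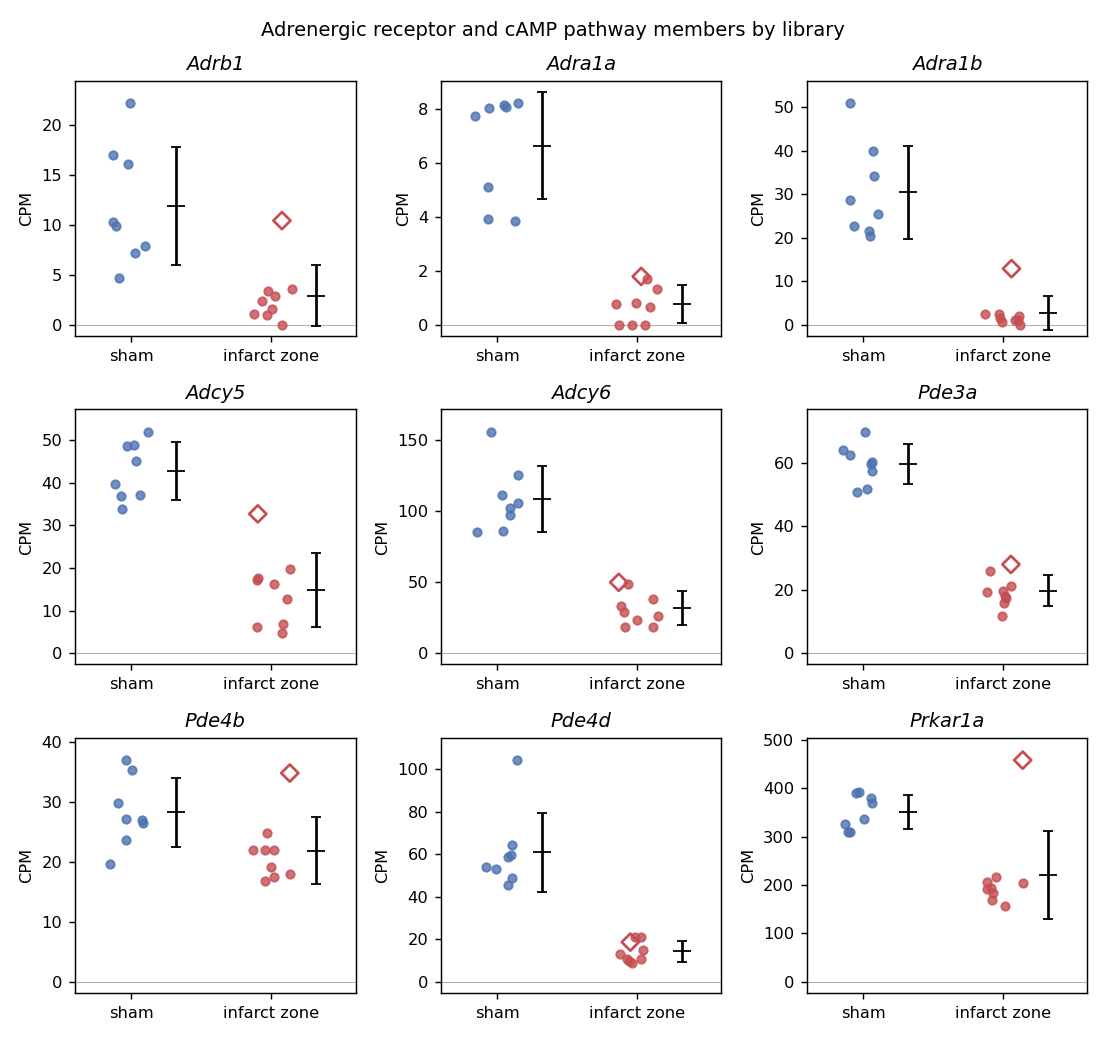
CPM of the 9 members in each library (blue, sham, n = 8; red, IZ, n = 9), with the mean and SD beside the points and IZ replicate 1 as an open diamond. IZ points lie below all sham points for Adra1a, Adra1b, Adcy5, Adcy6, Pde3a and Pde4d, while Pde4b overlaps, and Adrb1 and Prkar1a overlap only through IZ replicate 1.

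Adrb1 encodes the beta-1 receptor, the main receptor through which noradrenaline drives the heart. It lies at chr19:56722199-56733113 on the plus strand (GRCm38, GENCODE M21). The 250 bases before its start site in the RefSeq promoter table (GRCm38.p6, chr19:56721867-56722116, plus strand, outside annotated exons) are shown because they hold the short form of the cAMP response element, TGACG, in capitals. They are 74.0% G and C.

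Adrb1 promoter: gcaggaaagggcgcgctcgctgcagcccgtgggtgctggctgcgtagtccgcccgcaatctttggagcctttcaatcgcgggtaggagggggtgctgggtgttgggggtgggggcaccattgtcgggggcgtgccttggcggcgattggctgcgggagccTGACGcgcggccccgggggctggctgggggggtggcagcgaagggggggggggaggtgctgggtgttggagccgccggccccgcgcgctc

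Adrb1 was a low transcript in sham LV, from 4.71 to 22.1 CPM with a median of 10.1. In the IZ it ran from 0 to 10.4 CPM with a median of 2.34. Of the 9 IZ libraries, 8 lay below every sham library, and IZ replicate 1, the highest, lay within the sham range. Sham LV averaged 11.9 ± 5.90 CPM (SD, n = 8) and the IZ 2.91 ± 3.05 CPM (SD, n = 9), a log2 fold change of -2.16 ± 0.44 (SE, edgeR adjusted p 0.000136) or 4.47-fold lower. Without IZ replicate 1 it was 6.89-fold lower, and the other 8 IZ libraries averaged 1.98 ± 1.27 CPM (SD). These levels rest on few molecules, 7 to 58 counts per sham library and 0 to 29 per IZ library.

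Adra1b and Adra1a encode the alpha-1 receptors of the cardiomyocyte. Adra1b (chr11:43774606-43901210, minus strand) had the lowest fold change of the tested members. It was counted at 20.4 to 51.0 CPM in sham (median 27.1) and at 0 to 12.9 CPM in the IZ (median 1.63). All 9 IZ libraries lay below all sham libraries, and apart from IZ replicate 1 none exceeded 2.56 CPM. The log2 fold change was -3.55 ± 0.41 (SE, edgeR adjusted p 7.31e-08), 11.7-fold lower, with a sham mean of 30.5 ± 10.7 CPM (SD, n = 8) and an IZ mean of 2.75 ± 3.91 CPM (SD, n = 9). Without IZ replicate 1 the difference was 21.2-fold.

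Adra1a (chr14:66635251-66771168, plus strand) had too few counts for the filter, 5 to 21 per library in sham and 0 to 6 in the IZ, where 3 libraries had none. Its level was 3.85 to 8.21 CPM in sham (median 7.87) and 0 to 1.79 CPM in the IZ (median 0.784). The groups did not overlap, and the mean fell from 6.63 ± 1.98 (SD, n = 8) to 0.787 ± 0.707 CPM (SD, n = 9). The IZ mean lay under the level that 3 counts per library stand for there, 1.05 CPM. By an exact two-sided permutation test chosen after its counts were seen, mean log2 CPM differed by -2.86, with p 4.11e-05, the smallest that this test can give with 8 and 9 libraries. The size of this difference depended on the setting: it was -1.71 with a prior count of 5 and -2.05 with total counts as library sizes. Count models that kept the gene gave -2.94 (edgeR without the filter, adjusted p 1.29e-07) and -3.08 (DESeq2, adjusted p 5.73e-14).

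Within the alpha-1 pair, Adra1b took 81.5 ± 5.73% of the counts in sham, and in the IZ its share ran from 0 to 100%, since few counts were left.

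Adenylyl cyclases make cAMP from ATP, and types 5 and 6 are the calcium-inhibited forms that dominate in heart muscle. Adcy5 (chr16:35154877-35305738, plus strand) ran from 33.7 to 51.9 CPM in sham (median 42.3) and from 4.73 to 32.7 CPM in the IZ (median 16.3). No IZ library reached the sham range, but IZ replicate 1 came close to its lower end. Its log2 fold change was -1.60 ± 0.28 (SE, edgeR adjusted p 2.35e-05), from 42.7 ± 6.73 (SD, n = 8) to 14.9 ± 8.69 CPM (SD, n = 9).

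Adcy6 (chr15:98589973-98610076, minus strand) was the more abundant of the pair by 3′ counts. It had 85.5 to 155.7 CPM in sham (median 104) and 18.4 to 49.9 CPM in the IZ (median 29.1). The groups were well apart, and IZ replicates 1 and 6 were the highest of the IZ. The log2 fold change was -1.79 ± 0.19 (SE, edgeR adjusted p 1.82e-08), 3.45-fold lower.

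The makeup of the cyclase family differed between the groups. Among the other cyclases, 2 of 4 tested were higher, 1 was lower and 1 was not called. Adcy7, known from blood and immune cells, averaged 11.6 ± 3.77 CPM over sham libraries (SD, n = 8) and 61.5 ± 9.55 CPM over IZ libraries (SD, n = 9), and so rose by 2.44 ± 0.16 on the log2 scale (SE, edgeR adjusted p 1.43e-11). Adcy3 was also higher, by 1.63 ± 0.25, and Adcy9 was lower, by 1.29 on the log2 scale. With total counts alone as library sizes, Adcy9 stood at -0.22 and was not called. Adcy4 had a log2 fold change of -0.27 ± 0.16 and was not called (adjusted p 0.145).

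As a share of all counts for Adcy1 to Adcy9, Adcy5 and Adcy6 made up 20.5 ± 3.12% and 51.4 ± 5.37% of sham libraries' counts (SD, n = 8) but 9.60 ± 4.37% and 21.1 ± 4.87% in the IZ (SD, n = 9). Adcy7 went from 5.62 ± 2.0% to 42.5 ± 7.46%, with no overlap between the groups, and ranked first in the IZ in every library. The summed level of the 9 cyclases was 210 ± 24.4 CPM in sham and 147 ± 25.7 CPM in the IZ. These shares compare 3′ counts, and capture of each gene's 3′ end may differ.

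**Figure D2:**
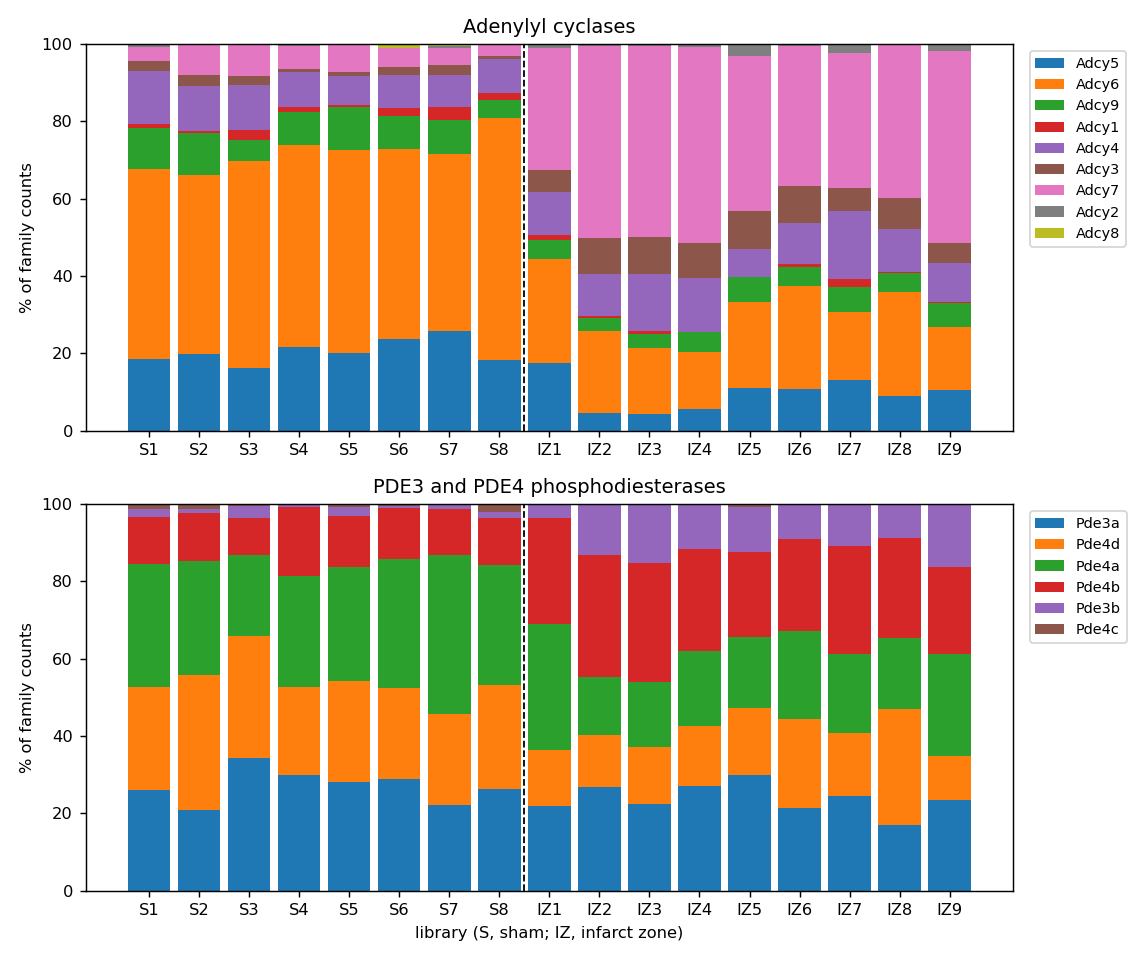
Share of each gene in the 3′ counts of its family, in percent, for 8 sham (S) and 9 IZ libraries, with adenylyl cyclases above and PDE3 and PDE4 phosphodiesterases below. Adcy7 takes 2.88 to 8.30% of cyclase counts in sham and 31.7 to 50.6% in the IZ, and Pde4b takes 9.65 to 17.6% and 22.1 to 31.5% of the PDE3 and PDE4 counts.

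Phosphodiesterases break cAMP down. Pde3a (chr6:141249269-141507448, plus strand), the target of the inotropic drug milrinone, ran from 50.7 to 69.8 CPM in sham (median 59.95) and from 11.8 to 28.0 CPM in the IZ (median 19.3). Both groups were narrow, and every IZ library lay far below every sham library. The log2 fold change was -1.60 ± 0.13 (SE, edgeR adjusted p 4.60e-10), 3.02-fold lower.

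Pde4d (chr13:108449948-109953461, plus strand), whose protein sits near the ryanodine receptor and beta receptors, ran from 45.3 to 104.2 CPM in sham (median 56.2). In the IZ it ran from 8.70 to 21.2 CPM (median 12.9). Sham replicate 2 was far above the other sham libraries, and the groups did not overlap. The log2 fold change was -2.12 ± 0.20 (SE, edgeR adjusted p 1.87e-09), 4.36-fold lower. A ribosomal protein pseudogene and other annotated features lie inside this long locus on the same strand. They held 3830 counts over all libraries, against 1269 for Pde4d, so reads there depend on how the counting assigned them. Same-strand features also overlap Pde3a, with 74 counts against 1463 for Pde3a, and Adcy5, with 0 counts.

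Pde4b (chr4:102087543-102607259, plus strand), a PDE4 form that both cardiomyocytes and immune cells use, was the least changed member. It ran from 19.6 to 37.0 CPM in sham (median 27.0) and from 16.9 to 34.8 CPM in the IZ (median 21.9). The groups overlapped, with 4 of 9 IZ libraries below all sham libraries and IZ replicate 1 within the upper part of the sham range. The log2 fold change was -0.37 ± 0.15 (SE, edgeR adjusted p 0.0379). This call was not firm: it was lost with upper quartile scaling, without the filter on low counts and when any 1 of 10 libraries was left out, and total counts alone gave 0.69 in the opposite direction. Without IZ replicate 1 the log2 fold change was -0.51 (edgeR adjusted p 0.00199).

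Pde4b and Pde4d changed unequally within libraries. The mean log2 ratio of Pde4b to Pde4d was -1.08 ± 0.40 over sham libraries (SD, n = 8) and 0.64 ± 0.48 over IZ libraries (SD, n = 9), a difference of 1.72 by exact two-sided permutation (p 8.23e-05, adjusted over 6 ratios 0.000494). Every IZ library lay above every sham library, and scaling enters such a ratio only through the prior count. Pde4b went from 12.7 ± 2.25% to 26.4 ± 3.30% of the PDE3 and PDE4 counts, while the sum of these 6 genes went from 223 ± 33.0 to 82.9 ± 18.8 CPM. The ratio of Pde3a to Pde4d differed by 0.48 between the groups (exact permutation, adjusted p 0.127).

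Of the other phosphodiesterases, 8 were tested, 4 were higher, 2 lower and 2 not called. Pde1c, a calmodulin-stimulated form of heart muscle, was lowest with a log2 fold change of -2.96 ± 0.35, and Pde4a was lower by 1.95 on the log2 scale. The 4 higher genes were Pde1b (2.38 ± 0.34), Pde1a (2.25 ± 0.23), the cGMP-specific Pde5a (1.41 ± 0.26) and Pde3b (1.32 ± 0.29). Pde7a and Pde8a were not called, with log2 fold changes of -0.07 ± 0.13 and 0.14 ± 0.21.

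Prkar1a (chr11:109649405-109669656, plus strand) encodes the type I alpha regulatory subunit, which holds the PKA catalytic subunits inactive until cAMP binds. It is the member for which the promoter table held the full palindromic cAMP response element, TGACGTCA, shown in capitals in a 30-base window (chr11:109650889-109650918, plus strand, outside annotated exons). The motif begins 49 bases before one of its annotated start sites.

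Prkar1a promoter: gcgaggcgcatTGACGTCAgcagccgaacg

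A window from a Pde4b promoter (chr4:102421509-102421538, plus strand, overlapping an annotated exon) is shown for comparison, because it carries the short form on the opposite strand, as CGTCA, beginning 34 bases before a start site.

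Pde4b promoter: gatttggctgcaCGTCAattttctcatctg

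Of the 32851 promoter windows of 300 bases in the table, 1.79% held TGACGTCA and 20.8% held TGACG on either strand, which the full element also contains. Entries were found for 6 members with 15 windows: Adrb1, Adra1b, Adcy5, Pde4b, Pde4d and Prkar1a. The full element was in 2 windows, both of Prkar1a, which overlap and hold the same site. The short form was in 5 windows of Adrb1, Pde4b and Prkar1a. A match describes the letters and does not show that a factor binds there.

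Prkar1a was the most abundant member, at 308.7 to 390.8 CPM in sham (median 352). In the IZ it ran from 156.9 to 457.7 CPM (median 194). The 8 IZ libraries other than replicate 1 lay between 156.9 and 217 CPM, below all sham libraries, while IZ replicate 1 was above all sham libraries. Sham LV averaged 351 ± 35.2 CPM (SD, n = 8) and the IZ 220.1 ± 91.0 CPM (SD, n = 9), a log2 fold change of -0.68 ± 0.17 (SE, edgeR adjusted p 0.00132). Without IZ replicate 1 the IZ averaged 190.4 ± 19.8 CPM (SD, n = 8) and the log2 fold change was -0.92, whereas with total counts alone as library sizes it turned to 0.35.

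The other PKA genes moved in both directions. Of 7 tested, 4 were lower: the catalytic subunit Prkaca (-1.66 ± 0.17), the regulatory subunit Prkar2a (-1.41 ± 0.15) and the inhibitors Pkia (-2.02 ± 0.15) and Pkig (-1.31 ± 0.14). The 2 higher genes were the inhibitor Pkib (2.73 ± 0.34) and the regulatory subunit Prkar2b (1.82 ± 0.28), whereas the catalytic subunit Prkacb was not called (0.13 ± 0.14). Prkaca took 88.0 ± 2.67% of catalytic subunit counts in sham and 67.8 ± 7.01% in the IZ. Among regulatory subunits, Prkar1a took 77.8 ± 2.40% in sham and 81.5 ± 4.05% in the IZ.

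**Figure D3:**
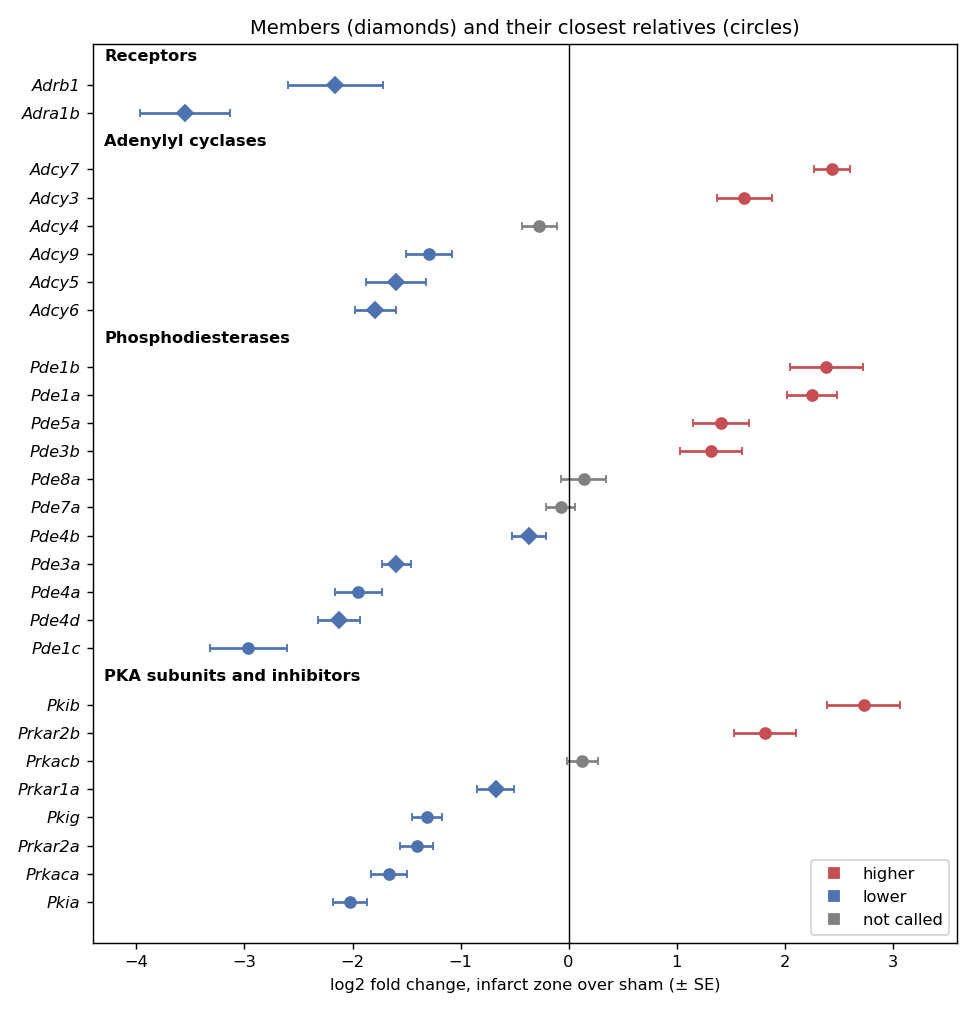
Log2 fold change (IZ over sham, ± SE, edgeR) of the tested members (diamonds) and their closest relatives (circles), coloured by whether the gene was called higher, lower or neither. The members lie between -3.55 and -0.37, and the relatives span -2.96 to 2.73. With total counts alone as library sizes, Pde4b and Prkar1a turn to 0.69 and 0.35, and Adcy4 and Pde7a turn to 0.79 and 1.0.

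The receptors were also set against each other within libraries. Adrb1 rose relative to Adra1b, by 1.64 on the log2 scale (exact two-sided permutation, adjusted over 6 ratios p 0.0396), with 6 of 9 IZ libraries above all sham libraries. That call was lost with a prior count of 0.25, with total counts as library sizes and on leaving out any of 12 libraries. For Adra1a against Adra1b the difference was 1.04 (adjusted p 0.254, exact permutation), for Adrb1 against Adra1a it was 0.61 (adjusted p 0.330), and for Adcy5 against Adcy6 it was 0.11 (adjusted p 0.647). None of these 3 passed the threshold.

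Each member was also expressed relative to the mean log2 CPM of the 8 cardiomyocyte markers, whose own log2 fold changes ran from -3.97 (Myl2) to -2.12 (Actc1). Since those markers fell, nearly any gene stands higher on that scale: 97.3% of the 12301 tested genes were higher in the IZ by exact two-sided permutation adjusted over all of them, with a median difference of 3.66 on the log2 scale. The count of 7 of 8 tested members that were higher is therefore no result about the members. All 8 differed by less than that median. Pde4b stood at 3.23 and Prkar1a at 2.86, followed by Pde3a at 1.99, Adcy5 at 1.89, Adcy6 at 1.78, Pde4d at 1.51 and Adrb1 at 1.35. These 7 fell less than the markers did, with exact permutation p, adjusted over all tested genes, from 0.000107 to 0.0039.

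Both alpha-1 receptors failed the threshold on the scale relative to cardiomyocyte markers. Adra1b differed by -0.29 (exact permutation, p 0.61 adjusted over all tested genes), and Adra1a, which is not among the tested genes, by 0.74 (exact permutation, unadjusted p 0.0993). Their low counts make both sensitive to the prior count: with a prior count of 5 they stood at 0.55 and 1.89, the latter past the threshold.

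**Figure D4:**
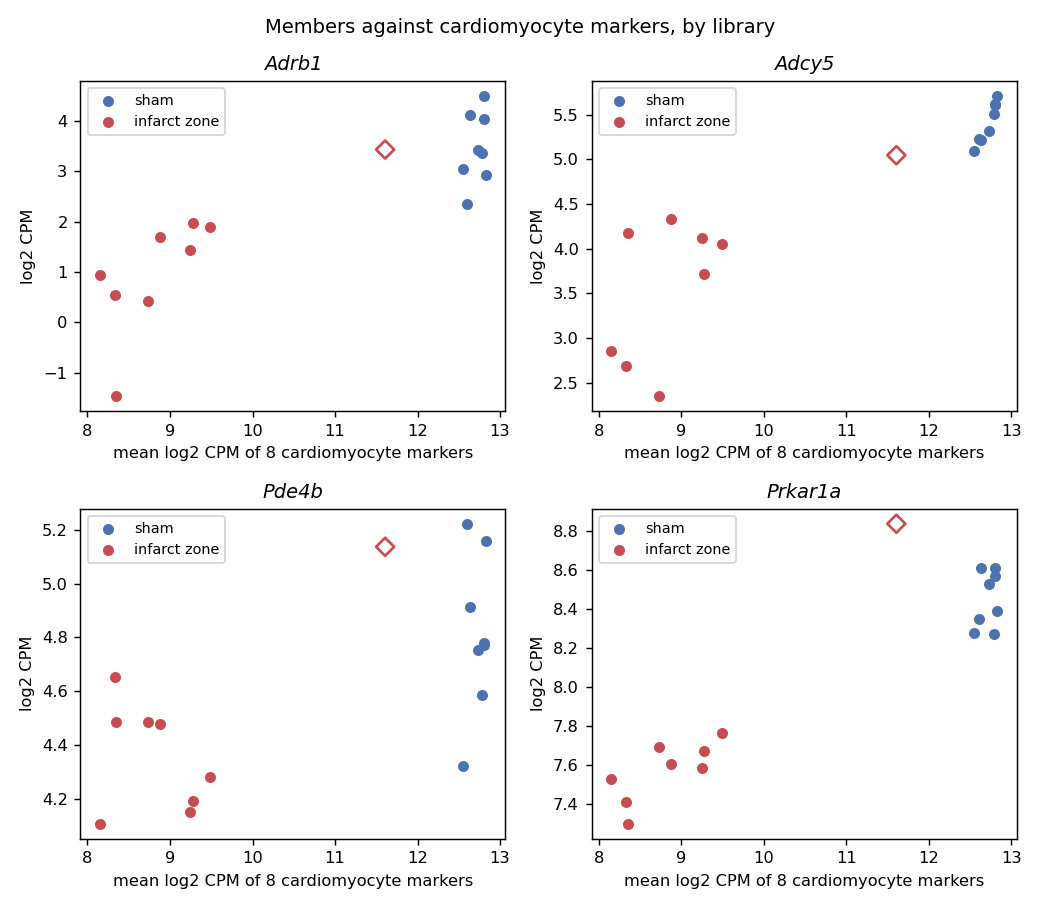
Log2 CPM of 4 members against the mean log2 CPM of 8 cardiomyocyte markers, by library (blue, sham, n = 8; red, IZ, n = 9; open diamond, IZ replicate 1). Adcy5 follows the markers closely within sham (r 0.97), Prkar1a follows them within the IZ (r 0.95), and Pde4b in the IZ changes the sign of its slope without the 2 libraries farthest from the median.

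Within a group, the relation to the markers was examined for each member, 18 relations in all, with exact two-sided permutation of the pairings. The groups form separate clusters, so no pooled value is given, and no label named a batch within which to repeat them. After adjustment, 2 relations passed by Pearson's r. Adcy5 rose with the markers across the 8 sham libraries, with Pearson r 0.97 (adjusted p 0.00179, exact permutation) and Spearman rho 0.95 (adjusted p 0.0205). Prkar1a rose with them across the 9 IZ libraries, with r 0.95 (adjusted p 0.0150, exact permutation) and rho 0.82 (adjusted p 0.0485).

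Leaving out the 2 libraries farthest from the median left r at 0.95 for Adcy5 (n = 6) and 0.83 for Prkar1a (n = 7). Neither lay under the threshold, with adjusted p 0.05 and 0.0973 (exact permutation). By rho the adjusted p values were 0.205 and 0.317. Both also lost their call by r over all libraries with total count CPM, where r was 0.90 for Adcy5 and 0.91 for Prkar1a (each adjusted p 0.0734, exact permutation). By rho in that setting, Adcy5 stayed past the threshold at 0.95 (adjusted p 0.0205, exact permutation). Prkar1a did not, with rho 0.65 (adjusted p 0.30). For Adrb1 in the IZ, r was 0.79 (adjusted p 0.0770, exact permutation) and rho 0.82 (adjusted p 0.0485). For Pde4d in sham, r was -0.74 (adjusted p 0.0770, exact permutation) and rho -0.90 (adjusted p 0.0411). Pde4b in the IZ went from r 0.63 to -0.87 without IZ replicates 1 and 4, so the first value rests on those libraries.

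The rest of the pathway was read from lists of other genes, of which 104 were tested: 38 were higher, 42 lower and 24 not called, with a median log2 fold change of -0.12. Over all 12301 tested genes, 36.3% were called higher and 33.1% lower, with a median of 0.05. The counts for each list below are descriptions to be read beside those shares, and no set test was run. Upstream of the cyclases, 8 of 15 G protein subunits were higher and 3 lower. The largest rise was that of Gng2 (2.58 ± 0.20) and the largest fall that of Gnao1 (-0.84 ± 0.16), an inhibitory alpha subunit, although total counts alone put Gnao1 at 0.21. The stimulatory subunit Gnas, named after its values were seen, fell from 967 ± 79.6 to 610 ± 52.8 CPM (log2 fold change -0.67 ± 0.12), and under total counts alone it changed sign as well.

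Receptor kinases and arrestins, which switch off and internalise active receptors, had 5 of 6 tested genes higher and none lower. Arrb2, beta-arrestin 2, rose most, by 2.53 ± 0.20 on the log2 scale, and Grk2, the kinase of active beta receptors, rose least, by 0.54 ± 0.13. Of the regulators of G protein signalling, which speed the shut-off of G proteins, 6 of 10 were higher, led by Rgs1 (4.07 ± 0.51), and 2 were lower, led by Rgs6 (-2.22 ± 0.31).

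A-kinase anchoring proteins, which hold PKA at its sites of action, had 7 of 11 lower, 1 higher (Akap13, 0.42 ± 0.12) and 3 not called, but with total counts alone the list turned to 7 higher and 4 lower, and Akap8, Akap9 and Akap11 changed sign. Pde4dip, a large scaffold that binds PDE4D, was the lowest of them at -2.99 ± 0.30. All 6 tested cAMP effectors other than PKA were lower, from the pacemaker channel gene Hcn2 (-3.30 ± 0.40) to Rapgef3, an exchange factor that cAMP activates (-0.67 ± 0.24, and 0.39 with total counts alone).

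All 10 tested PKA substrates of the heart muscle cell were lower, and stayed so in each scaling tried. They ran from the inhibitory troponin gene Tnni3 (-4.19 ± 0.46) to Rrad, a brake on the L-type calcium channel (-1.61 ± 0.31). The list holds genes of heart muscle, and all 8 cardiomyocyte markers were lower too. Median log2 fold changes were -2.53 for the substrates and -3.24 for the markers. The count of substrates is therefore no result about PKA signalling. CREB factors and coactivators, which carry the signal to genes, had 4 of 11 higher, none lower and 7 not called, from Creb3l1 (2.55 ± 0.29), a membrane-bound member of the family, to Creb1 (0.31 ± 0.12). Without IZ replicate 1 this list had 2 higher and 1 lower. It had 3 higher with DESeq2 size factors, 5 with upper quartile scaling and 11 with total counts alone. Creb1 lost its call on leaving out some single libraries (largest edgeR adjusted p 0.0584).

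The alpha-1 route had 4 of 8 tested effectors higher and 3 lower, with Prkcd at 2.39 ± 0.13 and Prkce at -1.58 ± 0.17, 2 protein kinase C forms. This list had 4 higher and 4 lower without IZ replicate 1, and 4 higher and 2 lower with upper quartile scaling. Total counts alone gave 5 higher and 1 lower, and 1 gene changed sign. Of 3 tested genes of noradrenaline handling, Maoa was higher (1.03 ± 0.30) and 2 were lower, led by Maob (-2.58 ± 0.32). Both encode monoamine oxidases. Among other receptors that act on adenylyl cyclase, Ptger4, a prostaglandin E receptor, was higher (1.29 ± 0.31), and Adora1, the adenosine A1 receptor, was the lower of 2 that fell (-2.28 ± 0.30).

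**Figure D5:**
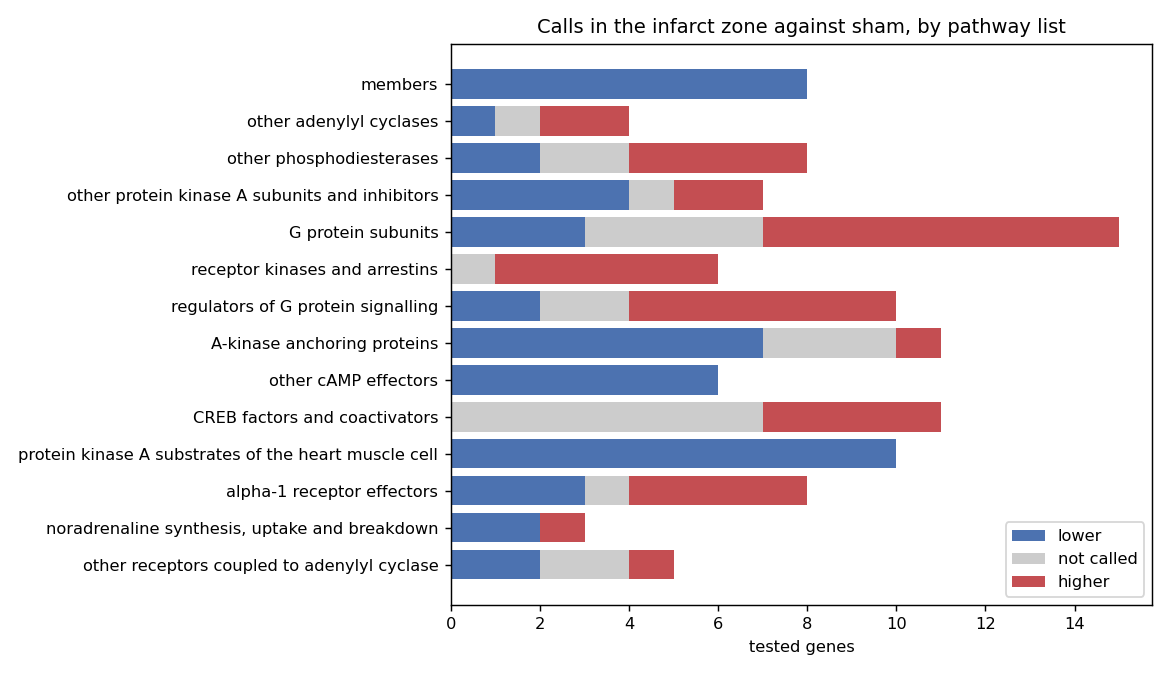
Number of tested genes called lower, not called or called higher in the IZ (edgeR, adjusted p under 0.05), for the members and each pathway list. Of all tested genes, 36.3% were called higher and 33.1% lower. The members, the other cAMP effectors and the PKA substrates show calls in the lower direction alone, and receptor kinases with arrestins and CREB factors in the higher direction alone. With total counts alone as library sizes, 2 members, 3 G protein subunits and 3 anchoring proteins turn from lower to higher values. So do 1 other cAMP effector, 1 alpha-1 receptor effector and 1 gene of noradrenaline handling.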

How the data were processed

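MACE libraries of 8 sham LV and 9 IZ samples were analysed, grouped by the labels. The authors trimmed reads with Cutadapt, mapped them to mm10 and counted them with HTSeq, and the submitters' processing notes also name bcl2fastq, Bowtie2 and DESeq2. The deposited values are raw counts per gene after removal of PCR duplicates by molecular identifiers. The handling of reads with several locations is not given in the sources used here. The members and lists were chosen with earlier results of these data known. Members were annotated with GENCODE M21. Of 31647 features, 35 were merged genes and got no name.

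Genes passing filterByExpr (minimum 10 counts) entered a fit in edgeR 4.0.16 under R 4.3.3 (TMM factors 0.616 to 1.53, two-sided quasi-likelihood F-test, no covariates, Benjamini-Hochberg over all tested genes, threshold 0.05). Log2 CPM used a prior count of 1. Ratios, differences from cardiomyocyte markers and relations were tested by exact permutation over the 24310 splits, or over the 40320 and 362880 pairings within sham and the IZ (Python 3.11.15, NumPy 2.4.6, pandas 2.3.3, SciPy 1.17.1). Named genes were the 9 members, the highest and lowest called gene of each pathway list, and relatives of the members. The result of 1 listed gene is not reported here. BLAST 2.17.0 found no other gene matching the last 500 bases of a member over 100 bases at 95% identity. Depth limits precision: 3 counts in a library were on average 1.77 CPM in sham and 1.05 in the IZ, and SDs include counting error.

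Same-numbered samples came from different mice and were not treated as pairs. No library was a copy of another (chi-square per degree of freedom at least 2.56). Alternatives were other scalings, DESeq2 1.42.0 with its Wald test, keeping all genes, a minimum mean of 50 counts, removal of mitochondrially encoded features, the replicate block, other prior counts and leaving out each library. The tests on Adra1a, and the adjustment over all tested genes of differences from cardiomyocyte markers, were chosen after seeing the data. The procedures were tested on simulated data. Figures were drawn with Matplotlib 3.10.9.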

Additional observations from a re-analysis of the deposited data

Results flagged for a closer look

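Of 18 sets of values, 9 members in each of 2 groups, 5 held a library whose gap to its nearest neighbour was larger than Dixon's critical value at 95%. Chance flags about 1 set in 20. Of these 5, 4 were IZ replicate 1. It had 10.4 CPM of Adrb1, with the next IZ library at 3.58, and 12.9 CPM of Adra1b, with the next at 2.56. For Pde4b it had 34.8 CPM, against 24.8 in the next library, and for Prkar1a 457.7 CPM, against 217. The same library had the highest summed cardiomyocyte markers and mitochondrial share of the IZ, and their part in these values was not tested. The fifth was sham replicate 2, with 104.2 CPM of Pde4d against 64.3 in the next sham library.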

How the results depend on the processing

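Adrb1, Adra1b, Adcy5, Adcy6, Pde3a and Pde4d kept their direction and their call under every alternative that tested them, but not their size. Log2 fold changes of Adrb1 ran from -2.78 to -1.12, and a library left out gave -2.78 to -1.95. The smallest falls came with total counts alone: -0.56 for Adcy5 (edgeR adjusted p 0.0346), -0.54 for Pde3a, -0.75 for Adcy6, -1.07 for Pde4d and -2.53 for Adra1b. Adra1a kept its direction and call in its permutation test, at -3.01 to -1.71. Total counts alone called 9176 genes higher and 1534 lower, 2 members higher and 67 pathway genes higher, and put Pde4b at 0.69, Prkar1a at 0.35, Gnao1 at 0.21, Rapgef3 at 0.39, Adcy4 at 0.79 and Pde7a at 1.0. Adcy9 lost its call under total counts alone, at -0.22. A minimum mean of 50 counts, which tests fewer genes, called 2747 higher and 2492 lower, and 25 pathway genes higher. Pde4b lost its call with upper quartile scaling (-0.26, where Pde7a stood at 0.0397), without the filter (-0.31) and without sham replicate 2, 4 or 5 or any of IZ replicates 3 to 9, with -0.51 to -0.30 over the libraries left out. With the replicate number as a block 8078 genes were called in place of 8544, Pde4b was -0.35 and not called, Rapgef3 also lost its call, and the other 7 tested members kept theirs. The numbers did not pair the samples: deviations of same-numbered libraries correlated at -0.22 to 0.13, and 1 of 8 sham libraries lay closest to its own number. The ratio of Adrb1 to Adra1b lost its call with a prior count of 0.25 (1.71) and with total counts (1.63), and was 1.25 to 2.02 over the libraries left out. With a prior count of 5, Adra1a to Adra1b passed the threshold at 1.33. Pde3a to Pde4d was 0.37 to 0.64 over the libraries left out and passed without IZ replicate 8. Relative to the cardiomyocyte markers, a prior count of 5 gave 1.89 for Adra1a, past the threshold, and 0.55 for Adra1b. Leaving out a library gave 0.58 to 0.93 for Adra1a, which passed without IZ replicate 8, and -0.43 to 0.0607 for Adra1b, with the change of sign without IZ replicate 5. For the relations, total count CPM gave r of -0.0865 for Adrb1, -0.26 for Adra1a, and -0.0616 for Prkar1a in sham. The calls by r of Adcy5 in sham (0.90) and Prkar1a in the IZ (0.91) were lost. Without the 2 farthest libraries r was -0.27 for Adrb1, -0.32 for Adra1a, -0.19 for Adra1b, -0.39 for Prkar1a and 0.95 for Adcy5 in sham, and -0.51 for Adra1b, -0.0845 for Pde3a, -0.87 for Pde4b and 0.83 for Prkar1a in the IZ. A prior count of 5 gave 0.90 for Adrb1 in the IZ, past the threshold. The causes of these changes were not tested. Adra1a, Adra1b and Adrb1 are limited by depth, with at most 6, 36 and 29 counts in an IZ library.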
